A study of Mus musculus with 8 samples.

Results

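Olig2 is the subject here, 1 gene of the 9140 gene rows in the deposited expression matrix, and it was found by its symbol, which stands on a single row (ENSMUSG00000039830). Its level, the share of cells in which it was detected and the genes that went with it were read in 30408 cells of 8 libraries. The cells were cultured mouse hippocampal neural progenitors, profiled with droplet 3′-end single-cell RNA sequencing in which each unique molecular identifier (UMI) marks 1 captured RNA molecule. The series holds progenitors kept undifferentiated with growth factors (day 0) and cells taken 2, 4 and 8 days after those factors were removed, in 2 genotypes.

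One genotype carried a gene-trap allele of Kmt2d, written Mll2Gt(RRt024)Byg in the labels and Kmt2d+/βgeo here, on 1 of its chromosomes. Kmt2d encodes a histone methyltransferase, and its heterozygous loss models Kabuki syndrome. The other genotype, labelled with the strain C57BL/6J and here called wild type, came from littermates per the labels. Mothers were C57BL/6J and fathers Kmt2d+/βgeo, and the labels describe microdissected dentate gyrus of embryonic day 18, whereas the study's methods describe hippocampus taken 1 day earlier. All cultures received EGF and FGF2 in Neurobasal medium until day 0 and none afterwards. The sex of the embryos and the number of embryos per culture are not stated in the labels or methods. Each genotype and day has 1 library, so a genotype, a culture and a library cannot be told apart, no test between libraries was run, and every interval below covers counting error only.

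Olig2 is a basic helix-loop-helix transcription factor of the neural lineage, which pairs with the broadly expressed E proteins (Tcf3, Tcf4 and Tcf12) and binds E-box sequences in DNA. In the developing nervous system it is required for oligodendrocyte precursors and spinal motor neurons, and it stays on in oligodendrocytes. It is also made by dividing neural progenitors in culture, where EGF and FGF2 are known to maintain it, and it is low in most mature astrocytes and in hippocampal neurons.

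The gene lies on the plus strand of GRCm38 chromosome 16, from 91225457 to 91228677. GENCODE M21 gives it 2 exons, from 91225457 to 91225653 and from 91226345 to 91228677, and the whole coding sequence of 969 bases is in exon 2 (91226400 to 91227368). Its close relative Olig1 begins 41094 bases downstream of its end and was not analysed here. The stretch in front of the Olig2 start is shown because it is the promoter of the gene whose RNA is followed below. The stretch in front of Lhfpl3, which encodes a tetraspan membrane protein of oligodendrocyte precursors, is shown because Lhfpl3 was the gene most correlated with Olig2 at day 8. Both are 5′ to 3′ on the plus strand of GRCm38.p6, from RefSeq, and capitals mark CAGCTG, an E-box.
Olig2, chr16:91225300-91225456: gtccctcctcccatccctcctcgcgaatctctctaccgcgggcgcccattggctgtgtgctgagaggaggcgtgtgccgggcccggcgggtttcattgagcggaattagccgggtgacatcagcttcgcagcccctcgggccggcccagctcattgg
Lhfpl3, chr5:22745804-22746053: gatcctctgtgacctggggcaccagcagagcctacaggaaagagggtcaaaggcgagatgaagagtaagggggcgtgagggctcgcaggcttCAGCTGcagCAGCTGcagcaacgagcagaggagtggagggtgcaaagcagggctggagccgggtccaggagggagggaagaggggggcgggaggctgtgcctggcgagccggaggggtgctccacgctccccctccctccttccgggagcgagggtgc
The letters CAGCTG, which read the same on both strands and are 1 form of the general E-box CANNTG, occur 2 times in the 250 bases of Lhfpl3 and 0 times in the 157 bases of Olig2. Over the 32851 promoters in the RefSeq table, 13.0% hold CAGCTG in the 250 bases before the start, and 7.86% hold it in the first 157 of them. The general form CANNTG has 0 matches in the Olig2 stretch, and 50.8% of all promoters hold it in a stretch of that length. Of the 5 genes most correlated with Olig2 at day 8, 3 were in the table and 1, Lhfpl3, held CAGCTG.

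Before the results, 3 features of the libraries bear on how they can be read. The median depth per cell was 3978 to 11216 UMIs on the matrix genes, lowest in the day 8 library labelled Kmt2d+/βgeo, so shares of cells are given after each cell was thinned to 3000 UMIs. Kmt2d itself, the targeted gene, did not mark the labels: its level was 0.207, 0.198, 0.339 and 0.292 UMIs per 10000 in the libraries labelled Kmt2d+/βgeo at days 0, 2, 4 and 8, and 0.181, 0.225, 0.275 and 0.269 in those labelled wild type, and the sources used here do not give where the trap lies relative to the 3′ tag. The day 4 library labelled Kmt2d+/βgeo went against its label. Luzp2, chosen after its values were seen, stood at 0.293, 1.72 and 2.90 per 10000 in the libraries labelled Kmt2d+/βgeo on days 0, 2 and 8 and at 0.0627 on day 4, against 0.00773 to 0.0692 in the 4 libraries labelled wild type. Day 4 values are therefore given by label, and comparisons that skip day 4 stand beside them. Any 2 of the libraries shared 0 to 10 cell barcodes over 28 pairs.

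Olig2 was abundant in undifferentiated progenitors and fell after the growth factors were removed, in the libraries of both labels. In those labelled Kmt2d+/βgeo its level was 6.02 UMIs per 10000 (95% Poisson interval 5.95 to 6.08) at day 0, 4.81 (4.74 to 4.88) at day 2, 2.27 (2.21 to 2.33) at day 4 and 1.52 (1.45 to 1.59) at day 8. In those labelled wild type it was 8.73 (8.65 to 8.81), 6.63 (6.54 to 6.72), 2.08 (2.02 to 2.13) and 0.902 (0.863 to 0.941). The order of the 8 levels ran from wild type day 0, wild type day 2, Kmt2d+/βgeo day 0 and Kmt2d+/βgeo day 2 through the 2 day 4 libraries to Kmt2d+/βgeo day 8 and wild type day 8. No neighbours in that order had overlapping counting intervals, but with single libraries the spread between cultures is unknown. These levels rest on 30692, 19019, 5428 and 1798 Olig2 UMIs in the libraries labelled Kmt2d+/βgeo and on 46289, 21278, 6207 and 2084 in those labelled wild type. On the deposited scale the mean log2 value went from 2.31 to 1.81, 0.957 and 0.666, and from 2.90 to 2.21, 0.932 and 0.430.

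**Figure D1:**
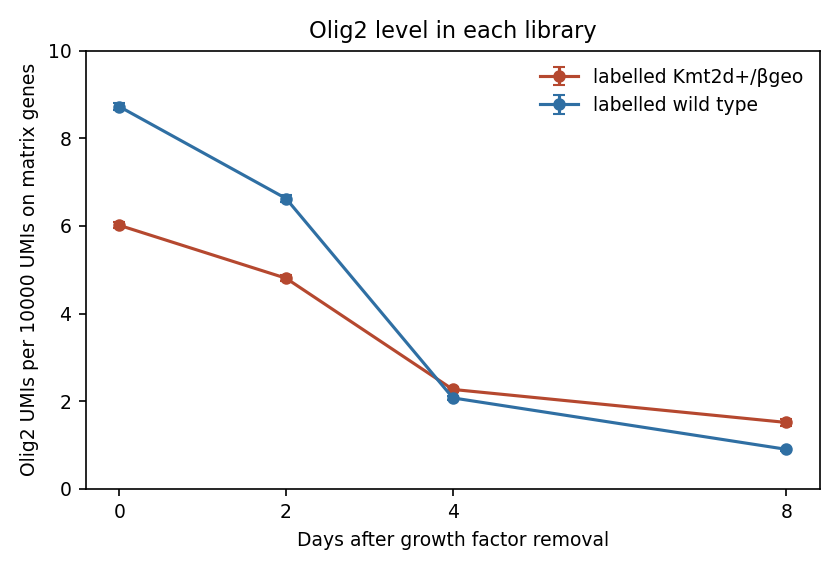
Olig2 UMIs per 10000 UMIs on the matrix genes (vertical axis) against days after growth factor removal (horizontal axis), 1 point per library with its 95% Poisson interval, which covers counting error only. The wild-type library is the higher of the pair at days 0 and 2, at 8.73 and 6.63, and the lower at days 4 and 8, at 2.08 and 0.902. The day 4 library labelled Kmt2d+/βgeo went against its label.

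The largest step on the log2 scale lay between days 2 and 4, with ratios of day 4 to day 2 of -1.08 and -1.68, of which the first rests on the day 4 library in doubt. The log2 ratio to day 0 at day 2 was -0.32 (95% interval -0.35 to -0.30) in the libraries labelled Kmt2d+/βgeo and -0.40 (-0.42 to -0.37) in those labelled wild type, short of the 2-fold mark used here for a call. As differences of mean log2 values the day 2 changes were larger, at -0.51 and -0.69. Over all genes compared, 7.34% and 6.38% fell by 2-fold or more at that day. At day 4 Olig2 had fallen past the mark in both, with ratios of -1.41 (-1.45 to -1.36) and -2.07 (-2.11 to -2.03), as 7.19% and 7.33% of genes did. By day 8 they were -1.99 (-2.06 to -1.92), a level 3.97-fold lower, and -3.28 (-3.34 to -3.21), a level 9.68-fold lower, where 14.2% and 11.6% of genes fell by 2-fold or more. In that comparison 3.38% of 7930 genes and 0.403% of 7937 genes had a lower ratio than Olig2, and the median over all genes was 0.10 and 0.05. The 3 ratios of each genotype share its day 0 library. Without the day 4 libraries, the log2 ratio of day 8 to day 2 was -1.67 (-1.74 to -1.60) for the label Kmt2d+/βgeo and -2.88 (-2.94 to -2.81) for wild type.

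Fewer cells had Olig2 at each later day. After thinning to 3000 UMIs, the share of cells with at least 1 Olig2 UMI was 72.1%, 55.6%, 29.2% and 23.5% at days 0, 2, 4 and 8 in the libraries labelled Kmt2d+/βgeo, and 85.5%, 64.6%, 29.7% and 14.9% in those labelled wild type. Before thinning the shares were 92.0%, 74.1%, 46.8% and 29.4%, and 97.5%, 81.4%, 46.2% and 23.4%. At day 8 the thinning left out 765 cells of the library labelled Kmt2d+/βgeo and 4 of the wild-type library. In the thinned cells with Olig2, the mean was 2.69, 2.95, 2.72 and 1.76 UMIs in the first group of libraries and 3.28, 3.35, 2.52 and 2.21 in the second. Both the share and, at day 8, the mean among cells with Olig2 were below those of day 0, and the latter cannot go below 1 UMI, so the parts of each in the decline are not set against each other.

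The Olig2 UMIs were held by a smaller share of the cells at days 4 and 8 than at day 0. Cells with 5 or more thinned UMIs made up 11.5%, 11.3%, 5.37% and 1.18% of cells in the libraries labelled Kmt2d+/βgeo, and 20.4%, 16.7%, 4.39% and 1.93% in those labelled wild type. At day 8 this class held 26 and 62 cells. Before thinning and over all cells, the tenth of cells with most Olig2 carried 29.2%, 37.9%, 59.4% and 63.5% of its UMIs over days 0, 2, 4 and 8 for the label Kmt2d+/βgeo, and 25.7%, 32.4%, 58.9% and 78.5% for wild type. As the mean count falls, counting noise alone raises this share and lowers that of cells with 5 or more UMIs. How far it did so here was not computed. The Fano factor of the thinned counts, the variance divided by the mean, which is 1 for counting noise alone, was 2.06, 3.32, 3.98 and 2.59 in the first group of libraries and 1.88, 3.05, 3.87 and 4.15 in the second. The Fano factor was thus higher at day 8 than at day 0 in both, and highest in the wild-type library of day 8. For the label Kmt2d+/βgeo it was highest at day 4. Where cells differ in level, the Fano factor also depends on the mean count. For that label the mean was 0.79 thinned UMIs at day 4 and 0.41 at day 8. The order of the Fano factor between days is therefore not one of unevenness alone.

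**Figure D2:**
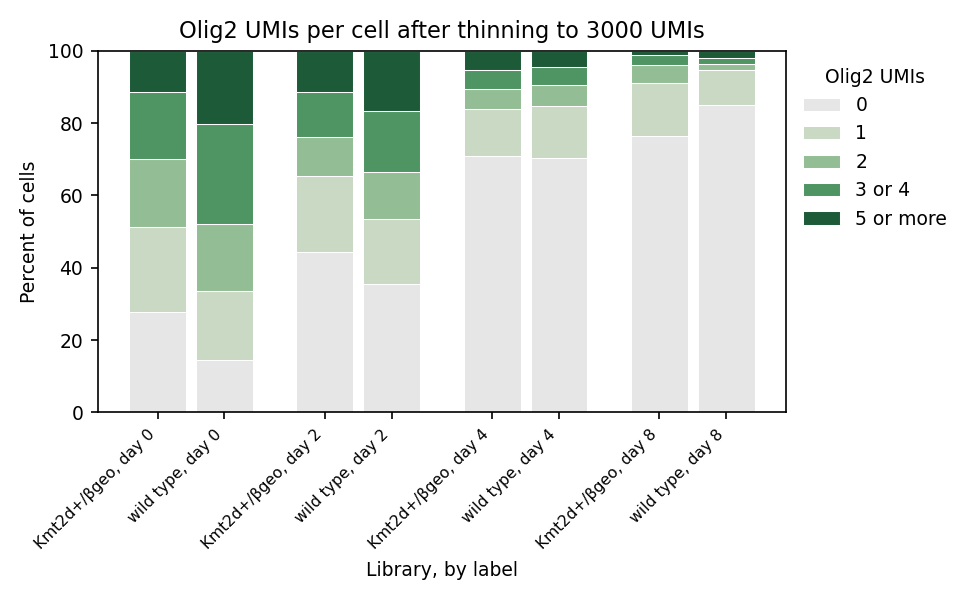
Percent of cells (vertical axis) with 0, 1, 2, 3 or 4, and 5 or more Olig2 UMIs after thinning each cell to 3000 UMIs, with 1 stacked bar per library (horizontal axis). The class with 0 UMIs grows from 27.9% to 76.5% of cells in the libraries labelled Kmt2d+/βgeo and from 14.5% to 85.1% in those labelled wild type.

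Set against each other at the same day, the genotype labels changed order. The log2 ratio of Kmt2d+/βgeo to wild type was below 0 early, with -0.54 (95% interval -0.56 to -0.52) on day 0 and -0.46 (-0.49 to -0.43) on day 2. It was above 0 on day 8, at 0.75 (0.66 to 0.84). On day 4, where the library labelled Kmt2d+/βgeo went against its label, it was 0.13 (0.08 to 0.18). Over all genes compared on day 4 the median ratio was 0.04 and the standard deviation 0.11. None of the 4 ratios reached 2-fold, as 1.64%, 2.96%, 0% and 4.4% of genes did in either direction at days 0, 2, 4 and 8. A larger ratio in either direction was held by 8.58%, 12.7%, 22.5% and 9.80% of the genes compared. As differences of mean log2 values, the ratios at days 0, 2, 4 and 8 were -0.59, -0.41, 0.026 and 0.24. The thinned share of cells differed by -13.3 percentage points (Newcombe 95% interval -15.0 to -11.7), -9.02 (-11.0 to -7.00), -0.53 (-2.85 to 1.80) and 8.63 (6.49 to 10.8), Kmt2d+/βgeo minus wild type.

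Cells with a high Olig2 count did not show the day 8 order. Those with 5 or more thinned UMIs made up 1.18% for the label Kmt2d+/βgeo and 1.93% for wild type, and the mean among cells with Olig2 was 1.76 and 2.21 UMIs. Among the thinned cells, the excess of the label Kmt2d+/βgeo at day 8 lay in those with 1 to 4 Olig2 UMIs. It was 14.6% against 9.4% at 1 UMI, 5.0% against 1.7% at 2, and 2.68% against 1.81% at 3 or 4. The 765 cells too shallow to thin are outside these classes.

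The size of the day 8 difference also depended on the shallow cells. In the day 8 library labelled Kmt2d+/βgeo, the 765 cells under 3000 UMIs held Olig2 at 2.61 per 10000 (2.38 to 2.87), and the 2200 deeper cells held it at 1.33 (1.26 to 1.40). The wild-type library had 4 such shallow cells, with 0 Olig2 UMIs among them. Over cells of at least 3000 UMIs, a setting chosen after the data were seen, the log2 ratio was 0.56 (0.46 to 0.66), and after thinning those cells to equal depth it was 0.34. The part of depth in the difference was not tested.

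After day 0, Olig2 was rarer in the cells with more astrocyte RNA. Cells of each library were ordered by a score, the mean log2 value of the 7 astrocyte marker genes in the matrix after thinning, and split into 5 bins of equal size. At day 0 the share with Olig2 was level along the score, at 70.4% in the lowest bin and 70.7% in the highest for the label Kmt2d+/βgeo, and 85.2% and 84.3% for wild type. At day 2 it went from 84.4% in the lowest bin to 38.0% in the highest, and from 91.0% to 36.6%. At day 4 it went from 65.5% to 12.6%, and from 66.6% to 15.0%. At day 8 it went from 33.9% to 19.8%, and from 30.5% to 10.8%. Cells with 5 or more Olig2 UMIs at day 8 made up 4.09% of the lowest bin and 0% of 440 cells in the highest for the label Kmt2d+/βgeo, and 9.19% and 0% of 641 cells for wild type. The mean in the lowest bin at day 8 was 0.795 and 1.08 UMIs, so by the mean the label Kmt2d+/βgeo was lower there. By the share of cells it was higher in all 5 bins, with intervals that overlapped in the lowest.

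The deposited data name no cell type that lacks Olig2, and the highest bin of the astrocyte score is the closest stand-in for one. That bin was not shown to lack Olig2. At day 8 its share of 19.8% came from cells of median depth 4451 UMIs, against 33.9% in the lowest bin at 4207, for the label Kmt2d+/βgeo, and its share of 10.8% from cells at 7094, against 30.5% at 6712, for wild type. Shares in the 3 bins between them at day 8 were 20.5% to 22.3% and 8.10% to 13.0%, near those of the highest bin. Whether an Olig2 UMI in these bins marks expression in that cell was not tested, and neither was the part of free RNA in the cell suspension. The summed level of the 7 astrocyte markers, of 11 listed, was 22.4 to 26.5 per 10000 at day 0 and 142 to 323 at later days, when most of it was Apoe (118 to 289).

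**Figure D3:**
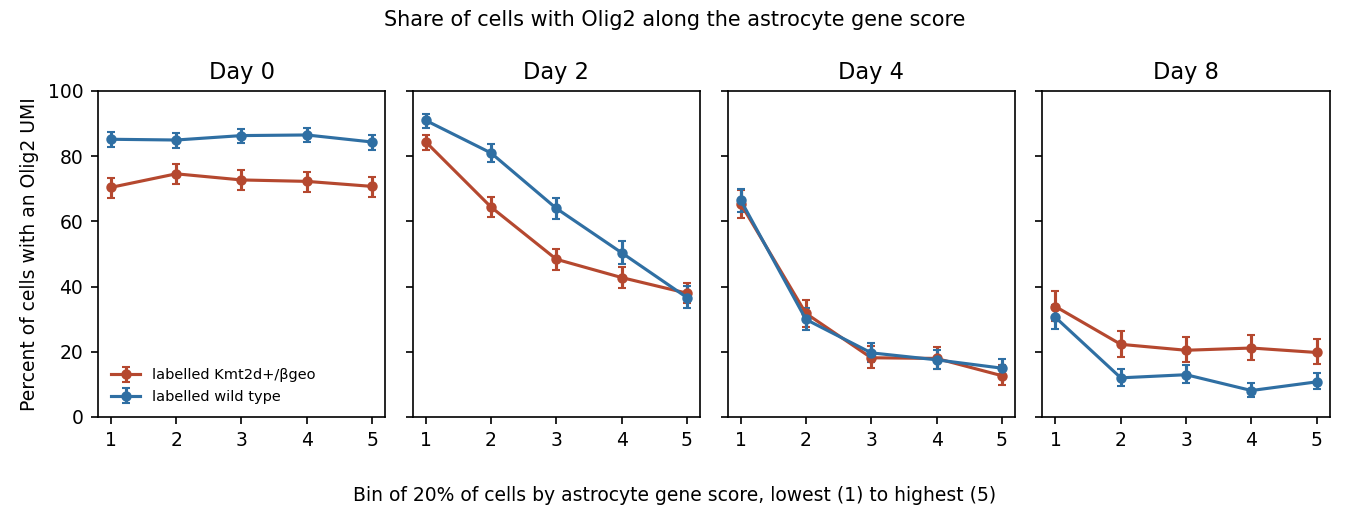
Percent of cells with at least 1 Olig2 UMI after thinning to 3000 UMIs (vertical axis) by bin of the astrocyte gene score, lowest to highest (horizontal axis), with 1 panel per day and exact 95% binomial intervals for counting error. The lines are level at day 0, fall steadily at day 2 from 84.4% and 91.0%, and at day 8 are raised mainly in the lowest bin, at 33.9% and 30.5%.

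Correlations across the cells of a library describe which genes were high in the cells with most Olig2. The points of each correlation are cells of 1 library, which share its depth and handling, and r of Olig2 with log2 depth was -0.29 to -0.06 over the 8 libraries. At day 0 the correlations were weak, with no gene above 0.3 or below -0.3 in either library. By the mean of both day 0 libraries, over 6989 genes, the highest were Rev3l (0.268), the catalytic subunit of the translesion DNA polymerase zeta, and Inka2, Arhgap31, Kcnc1 and Tacc2. Arhgap31 encodes a GTPase-activating protein for Rac and Cdc42, Kcnc1 a voltage-gated potassium channel, Inka2 an inhibitor of the kinase Pak4 and Tacc2 a centrosomal coiled-coil protein. Their r was 0.249 and 0.202 for Arhgap31, 0.240 and 0.197 for Kcnc1, 0.267 and 0.243 for Inka2, and 0.223 and 0.205 for Tacc2, with the label Kmt2d+/βgeo first. After thinning to 3000 UMIs the mean r of Rev3l was 0.155, and r was 0.122 and 0.112 for Arhgap31. These correlations are weak as observed, and how far counting noise lowered them was not tested.

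The lowest at day 0 were Nr2f1 (-0.227 and -0.172, and after thinning -0.134 and -0.0886), a nuclear receptor of cortical and hippocampal patterning, and Atad2 (-0.183 and -0.175), Nfic (-0.220 and -0.127), Dek (-0.176 and -0.162) and Mcm6 (-0.172 and -0.154). Mcm6 is a subunit of the replicative helicase, and Atad2 and Dek are chromatin proteins abundant in dividing cells. At day 0 the share of cells with Olig2 was 65.2% among the 916 cells with an Mcm6 UMI and 74.0% among the others for the label Kmt2d+/βgeo, and 82.1% among 864 cells and 86.2% for wild type. Cells with a UMI of Top2a, the DNA topoisomerase of dividing cells, had Olig2 in 67.8% against 74.7% of the rest, and in 82.5% against 87.0%. Olig2 was thus detected in most cells with and most cells without a UMI of these genes.

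At days 2 and 4 the correlations were stronger than at day 0, and those of the astrocyte list were below 0. All 7 astrocyte genes had r below 0 in the 4 libraries of those days, where 43.2% to 46.2% of all genes did, and 3 (label Kmt2d+/βgeo) and 6 (wild type) on day 2, and 4 in each library of day 4, were below -0.3, where 0.915% to 1.24% of all genes were. On day 0 this held for 0 in each, and on day 8 for 0 and 2. The median over the list was -0.01, -0.270, -0.339 and -0.133 over days 0, 2, 4 and 8 for the label Kmt2d+/βgeo, and -0.06, -0.378, -0.342 and -0.174 for wild type. The gene with the highest r at day 2 was Rev3l in both libraries, at 0.553 and 0.524, with Chd7, a chromatin remodeller of progenitors and oligodendrocyte precursors, at 0.477 and 0.465. Mad2l2, which encodes the accessory subunit of the same polymerase zeta, stood at 0.430 and 0.432. At day 4 Chd7 was at 0.549 and 0.485, Ets1, a transcription factor, at 0.549 and 0.449, and Myt1, a zinc finger factor of neural and oligodendrocyte precursors, at 0.523 and 0.464. Chd7, Mad2l2, Ets1 and Myt1 were named here after their values were seen. Genes used by all cells stood among them: on day 2 Ptma, a chromatin protein (0.452 and 0.481), ranked above Mad2l2 in both libraries and above Chd7 in wild type, where Npm1 (0.444) and Hsp90ab1 (0.440) also ranked above Mad2l2. In the wild-type library of day 4 other genes, also picked after their values were seen, ranked above Ets1 and Myt1, such as Ncald, a neuronal calcium sensor (0.509 and 0.488), and Eef1a1, a translation elongation factor of all cells (0.512 and 0.482). Genes with r above 0.3 numbered 35 and 42 on day 2, 81 and 62 on day 4, and 0 and 21 on day 8, after 0 on day 0. Those below -0.3 numbered 68 and 75, 94 and 71, and 5 and 39.

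At day 8 Lhfpl3 had the highest mean r, 0.440 over 7304 genes, at 0.297 for the label Kmt2d+/βgeo and 0.583 for wild type. Cacng4 (0.248 and 0.388), an auxiliary subunit of AMPA receptors, Basp1 (0.186 and 0.449) and Fscn1 (0.237 and 0.363), proteins of the growing cell cortex and its actin bundles, and Rev3l (0.183 and 0.362) followed. Of the 95 thinned cells with a Lhfpl3 UMI in the library labelled Kmt2d+/βgeo, 51.6% had Olig2, against 22.2% of the 2105 without, and of the 197 in the wild-type library 58.4% did, against 12.02% of 3011. The mean Olig2 count was 1.72 against 0.36 UMIs, and 2.80 against 0.17. At day 0 the same split gave 79.5% against 71.5%, and 85.2% against 85.5%. Since Lhfpl3 was chosen by its r in these day 8 cells, the day 8 split describes that choice. Most cells with Olig2 had no Lhfpl3 UMI at this depth.

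The lowest at day 8 were Mt3 (-0.401 and -0.680) and Mt2 (-0.337 and -0.558), metal-binding metallothioneins rich in astrocytes, Prdx6 (-0.348 and -0.644), an antioxidant enzyme, Dbi (-0.332 and -0.642), an acyl-CoA binding protein of glia, and Cryab (-0.303 and -0.552), a small heat shock protein. At day 0 the r of Mt3 was -0.01 and -0.152, and that of the other 4 lay between -0.08 and 0.03. Each of the 5 was higher at day 8 than at day 0 by 2-fold or more in both labels, where 19.5% and 16.7% of all genes were, and the 5 were picked by their day 8 r. Mt3 went from 13.0 and 13.7 UMIs per 10000 at day 0 to 183 and 214 at day 8, and Prdx6 from 6.02 and 6.60 to 89.6 and 146.

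**Figure D4:**
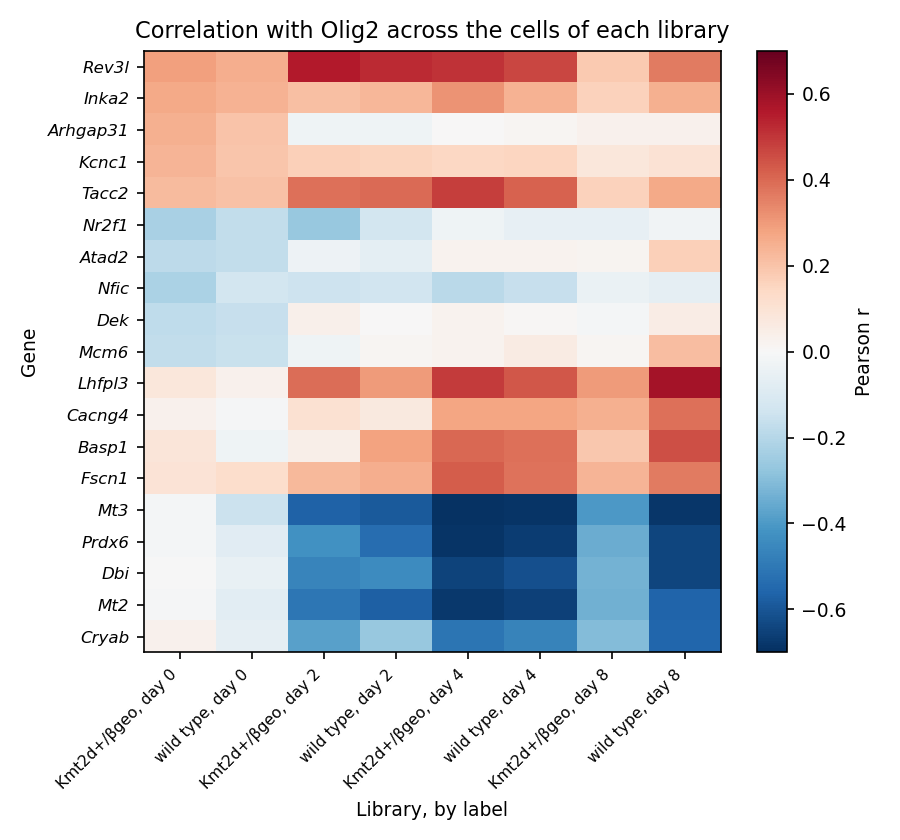
Pearson r with Olig2 across the cells of each library (colour scale, red above 0 and blue below) for the genes of highest and lowest mean r at day 0 and at day 8 (vertical axis), by library (horizontal axis). Rev3l is red throughout, from 0.183 to 0.553, and Mt3, Prdx6, Dbi, Mt2 and Cryab lie between -0.152 and 0.03 at day 0 and are blue from day 2.

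Rev3l was also the gene whose level was most like that of Olig2 over the libraries. Likeness was Pearson r of log2(rate + 0.1) over 8 libraries for 8245 genes, and it is a description, since the libraries share days, cultures and the same fall of many genes. Rev3l stood at 3.65, 3.56, 1.96 and 1.49 UMIs per 10000 in the libraries labelled Kmt2d+/βgeo and at 5.42, 4.22, 1.78 and 1.13 in those labelled wild type. Its order of levels was that of Olig2 in all 8 (r = 0.995, rho = 1.00, a rho shared by Dgkh). Without the day 4 libraries r was 0.996 and Rev3l was in place 2. In the cells, r between them was 0.285, 0.553, 0.505 and 0.183, and 0.252, 0.524, 0.465 and 0.362, and it was the highest of all genes in the 4 libraries of days 0 and 2. Rev3l lies on chromosome 10 (39732118 to 39875211) and Olig2 on chromosome 16. Both the correlation across cells and that across libraries come from the same libraries and are not independent of each other.

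**Figure D5:**
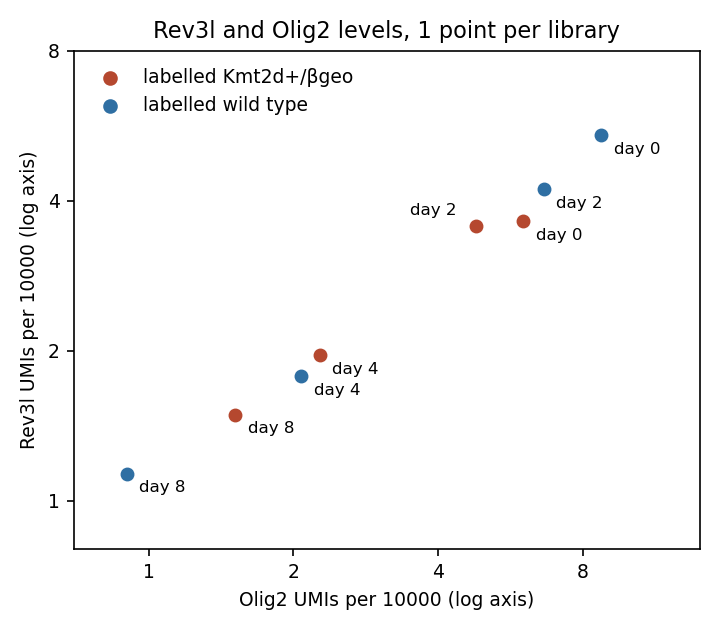
Rev3l level (vertical log axis) against Olig2 level (horizontal log axis), both in UMIs per 10000, with 1 point per library marked by day and coloured by genotype label. The points run from wild type day 8, at 0.902 for Olig2 and 1.13 for Rev3l, to wild type day 0, at 8.73 and 5.42.

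The other genes most like Olig2 over the libraries were Ralgapa2, Ubac2, Csnk1e and Dgkh (r = 0.990, 0.985, 0.984 and 0.981), but their levels spanned less: Csnk1e, casein kinase 1 epsilon, went from 1.51 and 1.88 at day 0 to 0.720 and 0.671 at day 8. Those most opposite were Iqcg, Wdr35, Enkur, Klc1 and Tbc1d13 (r = -0.998 to -0.987). Iqcg, Enkur and Wdr35 encode proteins of cilia or flagella. Iqcg went from 0.0351 and 0.0171 to 0.253 and 0.427 per 10000, Enkur from 0.0131 and 0.0104 to 0.316 and 0.566, and Wdr35 from 0.260 and 0.240 to 0.621 and 0.865.

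Sox9, a transcription factor that marks neural stem cells and astrocytes, ran the other way. Its level was 1.83, 2.37, 5.24 and 7.49 UMIs per 10000 in the libraries labelled Kmt2d+/βgeo and 3.03, 3.49, 4.76 and 8.01 in those labelled wild type. Its r with Olig2 across cells was below 0 in 7 of 8 libraries, from -0.427 to 0.01. At day 0, 25.4% and 45.6% of thinned cells held both, 46.8% and 39.8% Olig2 without Sox9, and 11.8% and 7.70% Sox9 without Olig2. At day 8, 16.2% and 11.0% had a UMI of both, 7.27% and 3.83% of Olig2 without Sox9, and 63.5% and 75.4% of Sox9 without Olig2. Among the day 8 cells with a Sox9 UMI, 20.4% and 12.8% had an Olig2 UMI, against 35.8% and 28.2% of those without. The highest astrocyte bin of that day had 19.8% and 10.8%, but Sox9 is part of its score, so that bin is no independent comparison. Whether the cells with a UMI of both express both was not tested. Gja1, the astrocyte gap junction protein connexin 43, had r below 0 in all 8 libraries, from -0.365 to -0.01. Apoe, the lipid carrier of astrocytes, had r of 0.00175 and -0.06 at day 0 and of -0.659 and -0.619 at day 4.

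Egfr, the receptor for EGF, had r above 0 with Olig2 in the cells of every library, from 0.08 to 0.294. At day 0, 78.1% of cells with an Egfr UMI and 70.1% of the others had Olig2 for the label Kmt2d+/βgeo. For wild type the day 0 shares were 86.1% and 85.1%, with overlapping intervals. At day 4, 35.5% of cells with an Egfr UMI and 20.6% of the others had Olig2 for the label Kmt2d+/βgeo, and 35.2% and 22.8% for wild type. At day 8 the shares were 31.8% and 19.5%, and 19.8% and 12.6%. Egfr itself had 1.12 and 1.39 UMIs per 10000 on day 0, 3.16 and 2.96 on day 4, and 1.54 and 1.31 on day 8, and so did not follow the decline of Olig2 over days.

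Olig2 was also read in the cells with a UMI of Top2a or of Rbfox3, which stand for these genes alone and not for their lists. Map2, the neuron marker with most UMIs, was at 4.19 and 3.99 per 10000 at day 8. At day 4 the r with Olig2 in cells was 0.359 and 0.370 for Map2 and 0.132 and 0.153 for Rbfox3. That of Prox1, another marker on the neuron list, was 0.259 and 0.214. At day 0 r was 0.0397 and 0.0405 for Map2 and -0.0595 and -0.0184 for Prox1. At day 8, 27 and 53 thinned cells had a Top2a UMI, and Olig2 was present in 33.3% (exact interval 16.5 to 54.0) and 52.8% (38.6 to 66.7) of them, against 23.4% and 14.2% of the rest. In the wild-type library the intervals did not overlap, and in the library labelled Kmt2d+/βgeo they did. Cells with a UMI of Rbfox3, which encodes the neuronal nuclear protein NeuN, were 60 and 42 at day 8. Of these 25.0% (14.7 to 37.9) and 26.2% (13.9 to 42.0) had an Olig2 UMI, against 23.5% and 14.7% of the rest. In the highest astrocyte bin 19.8% and 10.8% had one, and whether those UMIs mark expression was not tested. For the label Kmt2d+/βgeo the intervals for Rbfox3 and for Top2a both include the 19.8% of that bin. At day 4 the 136 and 186 such cells had Olig2 in 44.9% (36.3 to 53.6) and 42.5% (35.3 to 49.9), against 28.3% and 29.0%.

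Cell type markers, helix-loop-helix genes, signalling pathway genes, glial transcription factors and cell cycle genes were read as fixed lists. Their ratios of day 8 to day 0 stand against 14.2% of genes that fell and 19.5% that rose for the label Kmt2d+/βgeo and 11.6% and 16.7% for wild type. The lineage check was limited, since 4 of 18 oligodendrocyte lineage genes were in the matrix: Olig2, Bcas1, Tcf7l2 and Cnp. The defining genes Olig1, Sox10, Pdgfra and Mbp were not among the matrix rows, and no cell is called an oligodendrocyte precursor here. Bcas1, a marker of new oligodendrocytes, fell with Olig2, from 0.849 to 0.183 and from 0.419 to 0.0571 per 10000 (log2 ratios -2.22 and -2.88). Its r with Olig2 in cells was 0.395 and 0.335 on day 4, when that of Cnp was 0.262 and 0.249 and that of Tcf7l2 -0.184 and -0.173. On day 8 the r of Bcas1 was 0.0853 in the library labelled Kmt2d+/βgeo. In the wild-type library its level was under the 0.1 per 10000 set for correlations. Cnp, a myelin enzyme, had ratios of -0.38 and 0.15, and Tcf7l2, a transcription factor of maturing oligodendrocytes, 0.12 and 0.02. Of 7 microglial and 8 endothelial or mural markers, 0 were in the matrix. The 3 neuron markers of 10 summed to 3.39 to 4.89 per 10000 over the libraries.

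Of 29 listed helix-loop-helix genes, 7 were in the matrix. Of the 6 other than Olig2, 0 rose in either label, and 0 fell for Kmt2d+/βgeo and 1, Tcf3, for wild type. Tcf3, an E protein partner of Olig2, went from 1.19 to 0.628 and from 1.17 to 0.549 per 10000 (log2 ratios -0.93 and -1.09). Tcf4, the E protein most abundant in UMIs here, had ratios of -0.62 and -0.62, and its r with Olig2 in cells was 0.394 and 0.352 at day 2 and 0.417 and 0.412 at day 4. On the latter day r was 0.246 and 0.232 for Tcf12 and 0.0684 and 0.0908 for Tcf3, and below 0 for Id3 (-0.111 and -0.133), an inhibitor of E proteins, and for Bhlhe40 (-0.0987 and -0.0989), a transcriptional repressor. The median ratio of the list was 0.01 and -0.27, beside 0.10 and 0.05 over all genes.

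Of 13 compared targets and regulators of EGF and FGF signalling, 3 fell and 1 rose for the label Kmt2d+/βgeo, where 14.2% of all genes fell and 19.5% rose. For wild type 7 fell and 2 rose, where 11.6% fell and 16.7% rose. Their medians were -0.42 and -1.08. Etv1, Etv4 and Etv5, ETS factors that are switched on by FGF signalling, fell in both, Etv4 from 1.08 to 0.0691 and from 1.32 to 0.0398 per 10000, and Etv5 from 2.36 to 0.371 and from 4.07 to 0.197. At day 2 Etv4 was at 1.66 and 1.84, above its day 0 level in both labels, whereas Olig2 was below its own. Etv5 was then at 2.56 and 2.75, above day 0 for the label Kmt2d+/βgeo and below it for wild type. The main decline of Etv4 and Etv5 came after day 2. Fgfr3, a receptor of astrocyte precursors, rose (1.85 and 1.82).

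Of hedgehog genes, the pathway that switches Olig2 on in the ventral neural tube, 6 and 7 of 15 could be compared. In both labels Boc, a coreceptor, rose (1.38 and 1.42) and Cdon, another coreceptor, fell (-2.48 and -2.31), and Ptch1, receptor and target of the pathway, had ratios of 0.89 and 0.92. Of BMP genes, a pathway that opposes Olig2 and favours astrocytes, 6 of 18 could be compared and 1, the receptor Bmpr1b, rose in both (1.47 and 1.64). This 1 of 6 is near the share of all genes that rose, 19.5% and 16.7%. Of 11 compared glial transcription factors, Sox9 (2.03 and 1.40), Zbtb20 (1.95 and 1.63), a zinc finger factor of hippocampal and astrocyte development, and Hopx (3.91 and 3.06), a homeodomain protein of quiescent stem cells, rose in both, and 0 fell. The 4 neural progenitor genes had 1 riser and 1 that fell for the label Kmt2d+/βgeo, and 2 and 0 for wild type. Of the 7 astrocyte genes 4 and 5 rose and 0 fell, with medians of 2.03 and 1.40. Beside these lists, 19.5% and 16.7% of all genes rose and 14.2% and 11.6% fell.

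All 7 cell cycle genes in the matrix, of 16 listed, fell past 2-fold by day 8 in both labels, where 14.2% and 11.6% of all genes did. They did so earlier than Olig2. At day 2, 7.34% and 6.38% of all genes had fallen by 2-fold or more. Top2a went from 5.30 and 5.24 UMIs per 10000 at day 0 to 0.205 and 0.172 at day 2, a day on which Olig2 was at 4.81 and 6.63. Ccnd2, a cyclin of the first growth phase, went from 12.5 and 11.0 to 3.11 and 2.82. Olig2 therefore stayed within 2-fold of its day 0 level in cultures where the cell cycle genes were already low.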

How the data were processed

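Cells were profiled with a 10x Chromium 3′ kit in 8 libraries. Per the labels, the authors counted UMIs with alevin (Salmon 1.3.0) on GRCm38 and also used Seurat 3.2.2, and per the study's methods they took spliced counts, removed outlier cells and doublets, and scaled each cell to its library size. The deposited matrix holds these values as log2 of the normalised count plus 1. The deposited cell table holds each cell's total UMIs as the authors' estimated count.

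Back-transformed values summed to 8707.1 in every cell. The worth of 1 UMI was the most frequent nonzero value of a cell, and 86.8% of nonzero values were then within 0.01 of a whole UMI. UMIs were rounded for sums and for thinning to 3000 per cell without replacement. Levels are summed Olig2 UMIs per 10000 UMIs on the matrix genes, with exact Poisson intervals. Ratios have exact conditional intervals, shares exact Clopper-Pearson intervals and differences of shares Newcombe intervals, all at 95% and for counting error only. Genes were compared where either library had at least 0.1 per 10000, and counted at an absolute log2 ratio of at least 1. Correlations are Pearson r on the deposited log2 values, over genes of at least 0.1 per 10000 in the library. No test between libraries was run. Each genotype and day has 1 library, and a fit that pools over days or genotypes was not made. Scripts were tested on simulated counts. Python 3.11.15, numpy 2.4.6, scipy 1.17.1 and pandas 2.3.3 were used.

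Olig2, the gene lists and the rule for named genes were chosen with earlier results of these data known. The rule took the 5 highest and 5 lowest genes by mean r at day 0 and at day 8 and by r over libraries, fixed partners, and up to 4 genes per list.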

Additional observations from a re-analysis of the deposited data

Results flagged for a closer look

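The Olig2 ratio of Kmt2d+/βgeo to wild type had opposite directions on different days. The log2 ratio was -0.54 at day 0 and -0.46 at day 2, and 0.13 at day 4 and 0.75 at day 8. The difference between days was not tested, as each value rests on 1 library per label. On day 4 the library with the Kmt2d+/βgeo label had Luzp2 at the wild-type level (0.0627 UMIs per 10000), and the day 8 library of that label was the shallowest, with Olig2 at 2.61 per 10000 in its cells under 3000 UMIs and 1.33 in the others. Without day 4 the change of direction rests on days 0 and 2 against day 8. At day 8 cells with 5 or more thinned Olig2 UMIs went the other way, at 1.18% for Kmt2d+/βgeo and 1.93% for wild type, which are 26 and 62 cells. In the 20% of cells with the lowest astrocyte score the shares with 5 or more were 4.09% and 9.19%. Cells with 3 or 4 thinned UMIs kept the main order of day 8, at 2.68% and 1.81% of all thinned cells. In the 20% with the highest score, 19.8% and 10.8% of cells had an Olig2 UMI, and whether it marks expression there was not tested.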

How the results depend on the processing

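All 60 alternative values of the Olig2 log2 ratios kept their direction. For days 2, 4 and 8 over day 0, Kmt2d+/βgeo then wild type, they were -0.51, -1.35, -1.65, -0.69, -1.97 and -2.47 as differences of mean log2 values, -0.22, -1.26, -1.90, -0.35, -1.90 and -3.15 from mean normalised counts, -0.24, -1.29, -2.23, -0.37, -1.91 and -3.09 after thinning, and -0.36, -1.51, -2.17, -0.42, -2.19 and -3.59 without the 1% of cells with most Olig2. With total UMIs as denominator they were -0.38, -1.55 and -1.94, and -0.46, -2.09 and -3.18. For Kmt2d+/βgeo over wild type at days 0, 2, 4 and 8 they were -0.59, -0.41, 0.026 and 0.24 as differences of mean log2 values, -0.53, -0.40, 0.09 and 0.34 after thinning, and -0.46, -0.38, 0.08 and 0.78 with total UMIs. At day 2 mean normalised counts gave -0.42, and at day 8 leaving out the top 1% gave 0.87. Cells of at least 3000 UMIs, a setting chosen after the data were seen, gave -2.18 for day 8 over day 0 and 0.56 at day 8. No other ratio left its counting interval.

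The order of the labels in share of cells at day 4 changed with the setting: 29.2% for Kmt2d+/βgeo and 29.7% for wild type at 3000 UMIs, 24.0% and 23.9% with stronger thinning, and 36.6% and 35.8% with weaker thinning. Genes past 2-fold at day 0 between labels numbered 120, and 35 with a minimum of 0.5 per 10000 or 214 with no minimum beyond 3 counts. Of the 20 genes most correlated with Olig2, 18 stayed among the top 20 at day 0 and 12 at day 8 under Spearman, and 4 over the libraries, where Rev3l shared the first rho with Dgkh. Without the day 4 libraries 10 stayed and Rev3l was in place 2. Of the 20 lowest genes, 13 stayed at day 0 under Spearman and 10 after thinning, and 8 over the libraries under Spearman, 9 without day 4 and 12 with a pseudocount of 1. By Spearman at day 8 Rev3l was in place 29. By replicate number, no paired analysis was possible because the groups compared share fewer than 2 numbers. Pairing the genotypes by day was possible and was not run. Depth limits the day 8 values, where 765 cells were too shallow to thin.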
